A study of Mus musculus with 2 samples.

Results

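The CD200 and CD200 receptor family was read here as 5 genes: Cd200, which encodes the ligand, and the receptor genes Cd200r1, Cd200r2, Cd200r3 and Cd200r4. They were taken as every row of the deposited table whose platform annotation gives 1 gene symbol, that symbol being a family name. Each of the 5 had 1 row, out of 22180 genes with a named row. The samples were alveolar macrophages, which live in the airspaces of the lung, sorted from adult C57BL6 mice kept under specific pathogen free conditions. The array labelled wild type held RNA of littermates described as PIKfyve f_f (floxed alleles without a listed Cre). The array labelled PIKfyve KO held RNA of PIKfyve f_f_lysm_cre littermates, which carry those alleles with LysM-Cre, a recombinase active in myeloid cells, so both arrays come from floxed mice. Lungs were digested with collagenase and live cells were sorted on Siglec-F and CD11c, per the labels' protocols. The sources used here do not give the number of mice behind each array or the share of cells with a recombined allele.

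CD200 is a membrane glycoprotein of the immunoglobulin superfamily with a short tail that carries no known signalling motif. It is found on endothelium, neurons, lymphocytes, dendritic cells and airway lining cells, and it restrains macrophages through the receptor CD200R1. CD200R1 has a longer tail with tyrosines that recruit the adaptor DOK2 and then RasGAP, which dampens Ras and MAP kinase signalling, and alveolar macrophages are known for a high surface level of it. The other receptor genes arose by duplication beside it. Their products have short tails, and pairing with the activating adaptor DAP12 (gene Tyrobp) is known for some of them, while binding of CD200 to them is disputed.

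There was 1 array for each genotype, so no value has a replicate error and no difference was tested. Values are log2 RMA values, and differences are the array labelled KO minus the array labelled wild type. The family was chosen for description with these differences already known, so the differences are a description and support nothing by themselves. Background is the 95th percentile of 1428 olfactory, vomeronasal and taste receptor genes, 5.37 on the wild type and 5.31 on the KO array. Genes passed the filter when their mean over the arrays was at least 5.13, which is the median over rows, and 12516 did so. The local spread, a median absolute deviation of the differences, scaled to equal the SD of a normal distribution, among genes of like level, holds both noise and any real differences. Differences are read between arrays for 1 gene, because each row has its own probes. Background, shares of sensory receptor genes, bins of like level and summed signals set different genes side by side, so this limit applies to them.

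The sort marker genes and Pikfyve were read to check the sort and the labels, and the labels could not be checked. Siglecf and Itgax, which encode the sort markers Siglec-F and CD11c, read 9.27 and 10.03 on the wild type array against 8.54 and 10.39 on the KO array. All 24 measured alveolar macrophage marker genes lay at or above background on both arrays. Of these, 3 were at least 1.5-fold higher on the KO array (4.45% of all genes) and 3 lower (2.66%), with Siglecf among the lower. The check therefore shows that the markers were present, not that the cells of the arrays were alike. Pikfyve itself read 5.68 and 5.95, so it was not lower on the array labelled KO. The position of its probes against the floxed region is unknown here, so this row checks nothing, and the arrays are called by their labels.

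The regions around the gene starts are shown first, because the receptor genes are tandem copies and their promoters show how far the copies still resemble each other. RefSeq sequences of build GRCm38.p6 were matched for 4 of the 5 members by symbol, and Cd200r1 was not among them. Each runs 5′ to 3′ on the gene's strand, from 250 bases before the gene start to 50 after it. In Cd200r4 (chr16:44820478-44820777, plus strand) and Cd200r3 (chr16:44943428-44943727, plus strand) the capitals mark the stretch that aligned between them.
Cd200r4: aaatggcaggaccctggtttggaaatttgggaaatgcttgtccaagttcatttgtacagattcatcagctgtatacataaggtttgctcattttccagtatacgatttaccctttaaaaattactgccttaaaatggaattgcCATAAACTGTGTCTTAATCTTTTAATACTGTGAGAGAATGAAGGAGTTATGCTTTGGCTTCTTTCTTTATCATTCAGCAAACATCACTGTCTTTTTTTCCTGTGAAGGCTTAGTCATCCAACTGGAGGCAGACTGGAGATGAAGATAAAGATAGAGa
Cd200r3: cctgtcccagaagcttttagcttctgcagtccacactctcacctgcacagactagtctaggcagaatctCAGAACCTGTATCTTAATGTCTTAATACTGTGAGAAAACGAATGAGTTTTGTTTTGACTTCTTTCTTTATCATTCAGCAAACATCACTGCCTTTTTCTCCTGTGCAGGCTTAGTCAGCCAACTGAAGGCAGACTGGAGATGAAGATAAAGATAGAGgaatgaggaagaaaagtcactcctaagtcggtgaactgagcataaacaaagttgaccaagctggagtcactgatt
The aligned stretch covered 156 columns without a gap, of which 140 (89.7%) were identical. It ends at base 299 of the Cd200r4 window and at base 225 of the Cd200r3 window, so it spans the annotated start of Cd200r4 and stops before that of Cd200r3. Of the 6 pairs of windows aligned, no other had more than 46 aligned columns.

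Cd200r2 (chr16:44866847-44867146, plus strand) and Cd200 (chr16:45409004-45409303, minus strand) are shown because these were the members with the large differences. Capitals mark GAGGAA on either strand, the core bound by PU.1, a transcription factor of macrophages.
Cd200r2: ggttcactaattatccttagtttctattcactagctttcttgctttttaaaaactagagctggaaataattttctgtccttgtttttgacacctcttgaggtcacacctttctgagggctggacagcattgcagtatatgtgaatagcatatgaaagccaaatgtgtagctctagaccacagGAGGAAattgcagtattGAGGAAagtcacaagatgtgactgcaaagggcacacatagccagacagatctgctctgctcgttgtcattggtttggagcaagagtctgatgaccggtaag
Cd200: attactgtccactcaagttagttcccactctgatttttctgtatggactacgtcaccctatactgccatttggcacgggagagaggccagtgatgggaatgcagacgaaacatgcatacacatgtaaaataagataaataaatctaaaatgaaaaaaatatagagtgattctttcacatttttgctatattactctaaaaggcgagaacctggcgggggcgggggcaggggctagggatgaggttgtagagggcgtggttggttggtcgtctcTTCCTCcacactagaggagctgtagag
The Cd200r2 window held GAGGAA at 2 places, starting 68 and 51 bases before the gene start, and the Cd200 window held its reverse complement TTCCTC once, starting at base 24 of the gene. The Cd200r3 window also held 2 matches and the Cd200r4 window none. Of 32851 promoter windows of the same length, 28.3% held at least 1 match and 4.82% at least 2. The longest alignment of the Cd200r2 window with another receptor window spanned 23 columns, so it did not share the stretch common to Cd200r3 and Cd200r4. CACGTG, the E-box core of the lysosomal regulators of the MiT/TFE family, was in none of the 4 windows and in 7.15% of all. TGANTCA, the AP-1 site, was in none of the 4 and in 7.81% of all. A match is a description of letters and no match says only that these letters are not in the window.

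Cd200r2 and Cd200 were higher on the array labelled KO, Cd200r4 was somewhat higher, Cd200r1 was nearly level and Cd200r3 stayed below background. Of the 5 members 4 passed the filter, and 2 of these, Cd200 and Cd200r2, were higher by 2-fold or more. Over all 12516 genes the share at least 2-fold higher was 0.927%, and because the members were chosen on this contrast nothing is read from that comparison. No member was lower by 2-fold, which 0.336% of all genes were, by 1.5-fold (2.66%) or by 3-fold (0.032%). A threshold of 1.5-fold added Cd200r4 to the higher members, against 4.45% of all genes, and a threshold of 3-fold left Cd200r2 alone, against 0.296%.

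**Figure D1:**
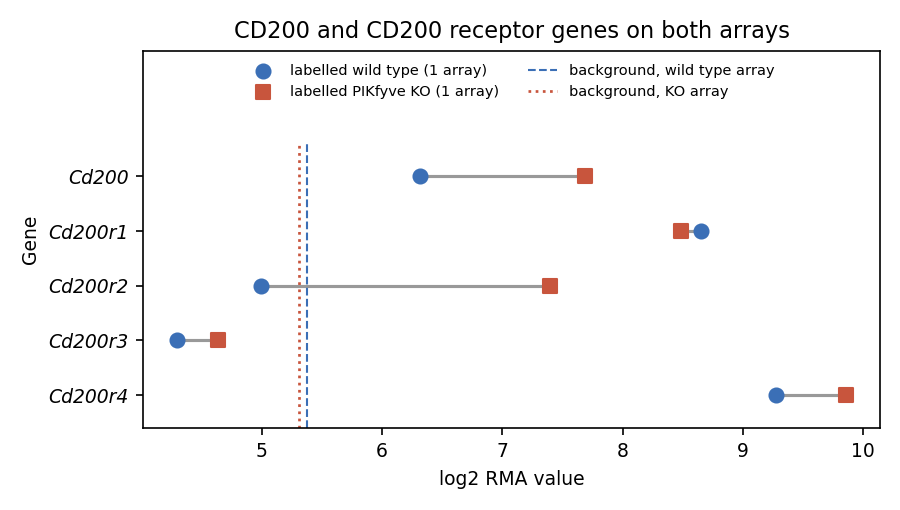
Log2 RMA values (horizontal axis) of the 5 genes (vertical axis) on the wild type array (circles) and the KO array (squares), 1 array each, with grey lines joining the values of a gene and vertical lines at each array's background level. Cd200r2 crosses from below the background lines (4.99) to 7.40, and Cd200r3 stays to the left of them on both arrays. Positions of different genes are not to be compared, and the background lines come from other genes.

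The ligand gene Cd200 read 6.32 on the wild type array against 7.68 on the KO array. Both values lay above background, above 98.5% and 99.9% of the sensory receptor genes. The difference of 1.36, or 2.57-fold, is 4.78 times the local spread of 0.285 among genes of that level. Among the 626 genes of like level, 8 were at least 2-fold higher and 4 differed by as much as Cd200 or more, itself included. It ranked 50 from the top of the 12516 genes.

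The inhibitory receptor gene Cd200r1 read 8.65 on the wild type array against 8.49 on the KO array. The difference of -0.17 was 0.50 of its local spread of 0.33, so the arrays did not differ for this gene by more than genes of like level commonly did. Both values lay above every sensory receptor gene. Of the 626 genes of like level, 488 had a difference at or above that of Cd200r1, whose position was therefore in the lower part of the range.

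Cd200r4, whose product has a short tail and pairs with DAP12, read 9.27 on the wild type array against 9.86 on the KO array. The difference of 0.59, just past 1.5-fold, is 1.96 times the local spread of 0.30. The 626 genes of like level had a median difference of 0.15, and 38 of them differed by as much as Cd200r4 or more, itself included. Cd200r4 was well above background on both arrays, so unlike Cd200r2 it was read in both genotypes.

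Cd200r2, another short-tailed receptor gene, read 4.99 on the wild type array, below background and above 90.7% of the sensory receptor genes. It read 7.40 on the KO array, above 99.9% of them. Because the wild type value lies within background, the difference as read, 2.41, is not used for a fold. Measured from the background level it was at least 4.08-fold higher. For the same reason no rank among all genes is given. The gene passed the filter through its KO value.

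Cd200r3, the receptor gene known from basophils and mast cells, read 4.29 on the wild type array against 4.64 on the KO array. Both values lie below background, above 77.6% and 85.7% of the sensory receptor genes, so no fold is given and it did not pass the filter. Basophil and mast cell markers were likewise mostly below background, on both arrays for 10 of 15. These included Fcer1a and Ms4a2, which encode chains of the IgE receptor, and the mast cell protease genes Cpa3, Tpsab1, Cma1 and Mcpt4. Prss34 (5.64 and 5.79), Kit (5.57 and 5.36) and Hdc (6.13 and 5.48), also in the list, lay above background on both arrays. The basophil protease gene Mcpt8 read 4.55 and 5.67, at least 1.23-fold higher from the background level. The summed linear signal of the list was 3001 and 6737, and without Cd63, which macrophages also express, it was 375 and 380.

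**Figure D2:**
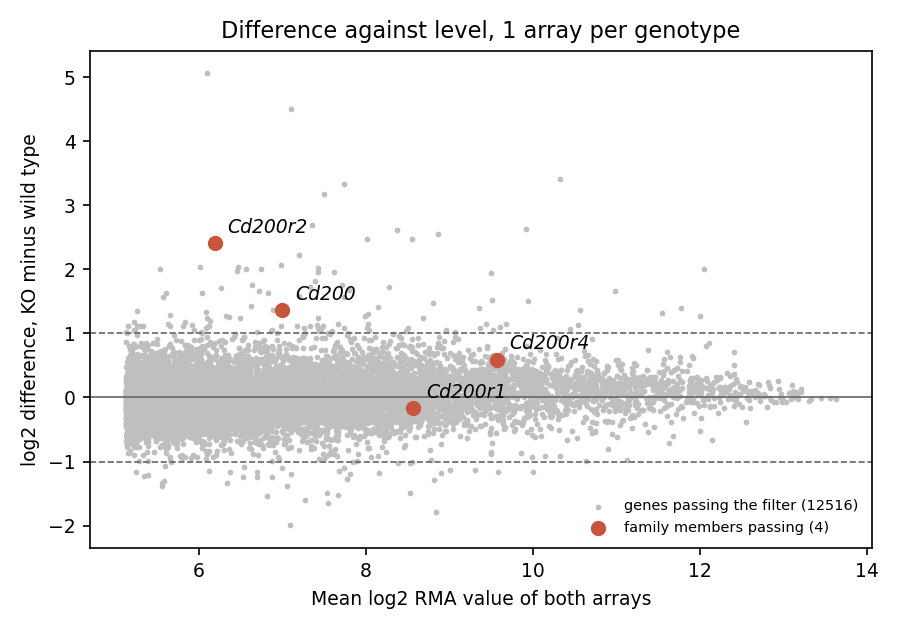
Log2 difference, KO minus wild type (vertical axis), against the mean log2 RMA value of both arrays (horizontal axis) for the 12516 genes that passed the filter (grey) and the 4 family members among them (red), with dashed lines at 2-fold. Cd200r2, plotted as read, and Cd200 lie above the upper line, Cd200r4 lies between it and 0, and Cd200r1 lies just below 0.

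The 3 receptor genes that passed the filter differed by -0.17 (Cd200r1), by 0.59 (Cd200r4) and, for Cd200r2, by at least 4.08-fold, while lying within a few places of each other on the chromosome. Sequence similarity bears on how far the rows can be told apart: the members are related copies, probe sequences were not used here, and whether a row also reads a related transcript was not tested. In bulk RNA such as this, more cells of a type that carries a transcript and more RNA per cell cannot be told apart.

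The neighbours of the family on chromosome 16 were read to see whether the difference extended along the region. In the RefSeq gene order Cd200r1 comes first, followed by Cd200r4, Cd200r2 and Cd200r3, with 6 other table genes between Cd200r3 and Cd200. Of 30 table genes within 10 places of a member, 15 had a value and 9 passed the filter, 4 higher and 5 lower, with a median difference of -0.03. None of the 9 was 2-fold apart, and since 0.927% of all genes were 2-fold higher and 0.336% 2-fold lower, a count of 0 among 9 is near the share over all genes. Ccdc80, next to Cd200r3, which encodes a secreted matrix protein, read 8.58 on the wild type array against 7.80 on the KO array, a difference of -0.77. Slc35a5, a nucleotide sugar transporter family gene between Cd200r3 and Cd200, read 7.32 and 7.51. Gtpbp8, next to Cd200r1, read 7.97 and 8.12. Btla, an inhibitory receptor gene of lymphocytes, read 5.43 and 5.28, the latter below background.

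**Figure D3:**
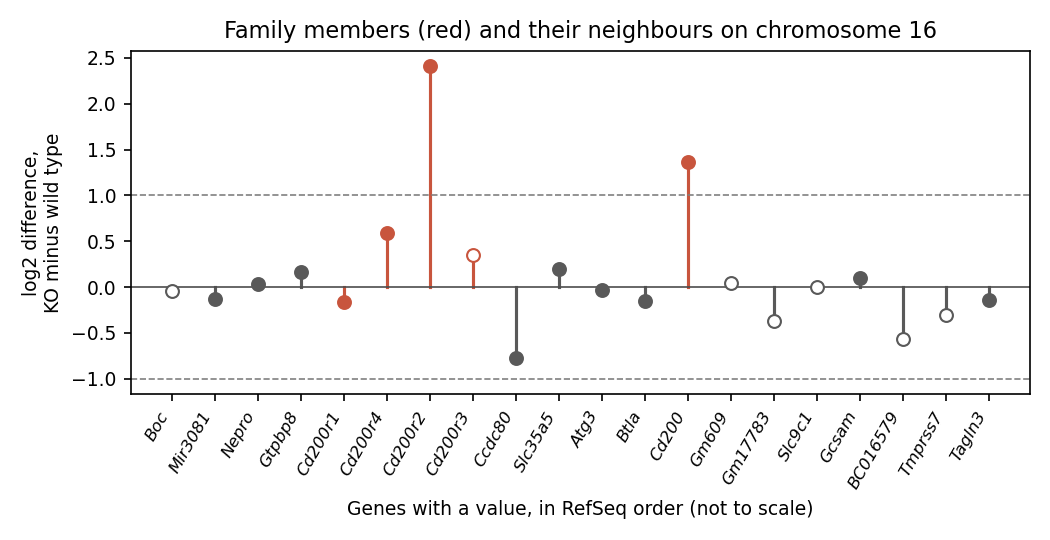
Log2 difference, KO minus wild type (vertical axis), of the family members (red) and the measured neighbours within 10 places (grey) in RefSeq order (horizontal axis, not to scale), with filled points for genes that passed the filter, open points for those that did not and dashed lines at 2-fold. Cd200r2 (2.41 as read, from a wild type value below background) and Cd200 (1.36) stand above the upper line, and Ccdc80 (-0.77) is the lowest.

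Partners of CD200R1 in signalling all lay within 1.5-fold. Of 17 measured genes of the fixed list of 22, 16 passed the filter, 6 higher and 10 lower, none by 1.5-fold. Over all genes 4.45% were 1.5-fold higher and 2.66% 1.5-fold lower, so a count of 0 among 16 is near that share. Their median difference was -0.10, against 0.00 over all 12516 genes. Dok2, the adaptor that binds the receptor's tail, read 6.18 on the wild type array against 5.90 on the KO array. Dok1, a related adaptor, read 5.84 and 5.93. Rasa1, which encodes RasGAP, read 8.07 and 8.06. Inpp5d, the inositol phosphatase SHIP1 that also takes part, read 5.88 and 5.71. The remaining genes with the largest differences were the p38 kinase gene Mapk14 at 0.46, the adaptor gene Crk at -0.42, the JNK gene Mapk9 at 0.33 and the MEK gene Map2k1 at -0.26.

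Genes of the DAP12 pathway, through which activating receptors signal, were centred on 0 with a few members apart. Of 26 measured genes of 29, 25 passed, 11 higher and 13 lower, with a median of 0.00. Tyrobp, which encodes DAP12, read 13.00 and 13.20. The related adaptor gene Fcer1g read 12.56 and 12.65, and the kinase gene Syk read 7.45 and 7.11. Trem2, a lipid-sensing receptor that pairs with DAP12, read 8.75 and 10.26, and Clec5a, another DAP12-linked receptor, read 9.10 and 10.24. These were the 2 of 25 members at least 2-fold higher, against 0.927% of all genes, and none was 2-fold lower, against 0.336%. Vav3, a guanine nucleotide exchange factor, differed by 0.62, and Pilrb2, an activating receptor gene, read 5.93 and 5.29, the latter below background.

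The list of other inhibitory receptors of myeloid cells held more genes lower than higher on the KO array, but as many higher as lower past 1.5-fold. It also holds the ligand gene Cd47, the phosphatase genes Ptpn6 and Ptpn11 and the sort marker gene Siglecf, so its counts are not of receptors alone. Of 23 measured genes of 26, all passed, 6 higher and 17 lower. Their median difference was -0.15, against 0.00 over all 12516 genes, and their mean was -0.04. With each array centred on its median, the list median was -0.09. By 1.5-fold, 3 were higher (4.45% of all genes) and 3 lower (2.66%). By 2-fold, 2 were higher (0.927%) and 1 lower (0.336%). Sirpa, the receptor for CD47, read 8.48 on the wild type array against 7.91 on the KO array, and Cd47 read 11.90 and 11.84. Pirb, a paired immunoglobulin-like receptor, read 11.32 and 11.05, and the collagen receptor gene Lair1 read 8.56 and 8.41. Cd300a, which binds phosphatidylserine, read 7.44 and 8.85, and Ceacam1, an adhesion receptor, read 5.69 and 6.97. Siglece, a sialic acid binding receptor, read 9.04 and 8.02, and Pilra, the inhibitory partner of the PILR family, read 11.29 and 10.49. Whether the CD200 family differed from any of these lists was not tested, since each genotype has 1 array.

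**Figure D4:**
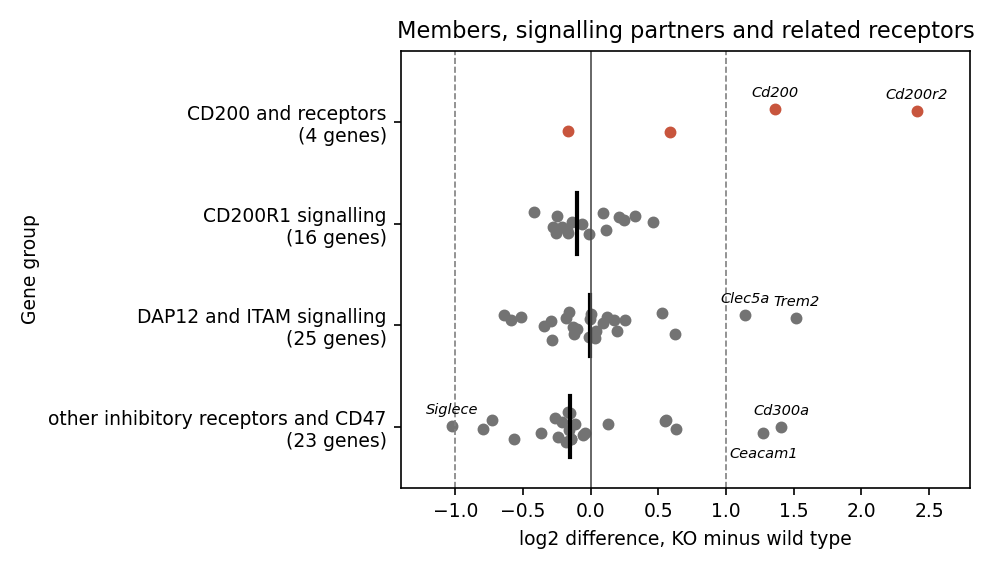
Log2 difference, KO minus wild type (horizontal axis), of each gene that passed the filter in 4 gene groups (vertical axis, points spread to be seen), with black bars at the medians of the 3 lists and dashed lines at 2-fold. Cd200 and Cd200r2 lie beyond 2-fold, as do Trem2, Clec5a, Cd300a, Ceacam1 and, on the lower side, Siglece, while no gene of the CD200R1 signalling list does.

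Markers of other cell types were read beside the family. These were types known to carry Cd200 or a CD200 receptor gene, or types likely in digested lung. Endothelial markers were mostly below background: 4 of 15 reached it on the wild type array against 6 on the KO array. Their summed linear signals were 697 and 794, or 568 and 547 without Calcrl. Cdh5, Kdr, Tek, Tie1 and Cldn5, which define endothelium, were below background on both arrays. Vwf (6.24 and 6.40) and Egfl7 (5.61 and 5.52) lay above it on both. Calcrl read 7.01 and 7.94, Cav1 5.36, below background, and 6.49, and Flt1, in the other direction, 7.09 and 6.21. Of 12 measured T cell markers, 6 and 7 reached background, with summed signals of 3931 and 4126, or 514 and 634 without Cd2. Of the 7 that passed the filter, 4 were higher and 3 lower, with a median difference of 0.03. Cd3d read 6.43 and 7.21 and Cd8b1 5.59 and 6.20, while Cd3e read 5.96 and 5.82. Of 10 measured B cell markers, 8 and 7 reached background, with summed signals of 789 and 742, or 596 and 543 without Cd79b. Mature dendritic cell markers reached background in 11 of 13 on both arrays, with summed signals of 3606 and 5243, or 1050 and 1276 without the chemokine gene Ccl17. In that list the homing receptor gene Ccr7 read 7.31 and 7.97, Ccl17 read 11.32 and 11.95 and Ccl22 read 7.82 and 8.33. Fscn1, the bundling protein of mature dendritic cells, read 5.42 and 5.37, and Zbtb46 lay below background on both arrays. Epithelial markers reached background in 13 and 15 of 19, with summed signals of 8140 and 9748, or 3247 and 4374 without Scgb1a1. Of the 17 that passed the filter, 11 were higher and 6 lower, with a median difference of 0.26. Epcam, which defines epithelium, read 8.09 and 6.09, while the airway secretory genes Bpifa1 and Scgb3a1 read 7.32 and 9.78, and 8.07 and 9.53. The surfactant gene Sftpc read 8.36 and 9.14. Sftpa1, also a surfactant gene, was likewise more than 1.5-fold higher on the KO array, while Napsa was more than 1.5-fold lower and Scgb1a1 stayed within 1.5-fold. The surfactant genes Sftpb and Sftpd, with Lamp3 and Foxj1, lay below background on both arrays, so the list had no common direction. Neutrophil markers reached it in 14 and 13 of 14, with summed signals of 7294 and 9977, or 4513 and 5651 without S100a8. All 14 passed the filter, 10 higher and 4 lower on the KO array, with a median difference of 0.42, against 0.00 over all genes. Eosinophil markers reached it in 1 and 3 of 8, with summed signals of 544 and 2597, or 155 and 195 without Ear6. The part of these cells in the difference of Cd200 or Cd200r2 was not tested.

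**Figure D5:**
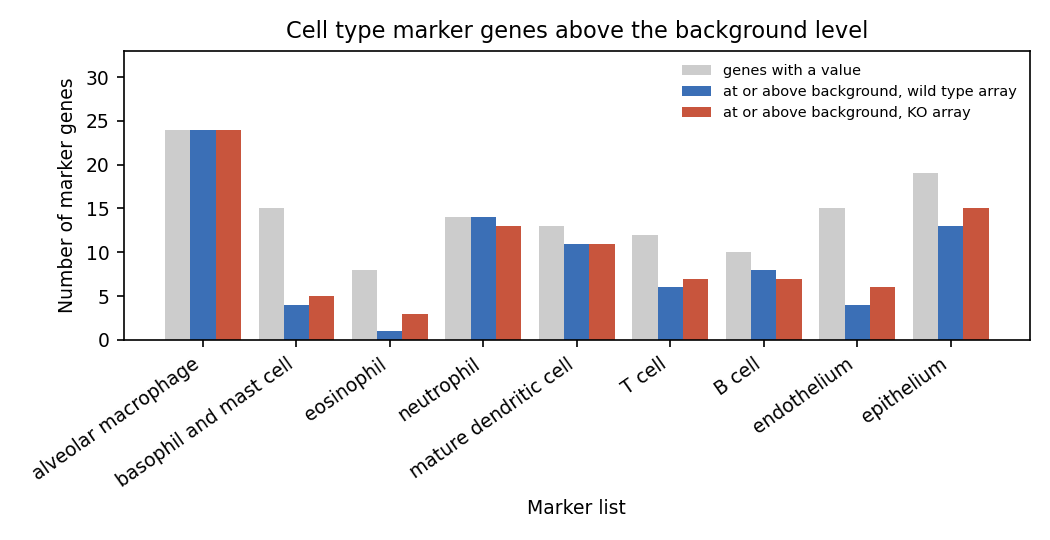
Number of marker genes (vertical axis, from 0) in 9 cell type lists (horizontal axis): grey bars give genes with a value, blue bars those at or above background on the wild type array and red bars those on the KO array. All 24 alveolar macrophage genes reach background on both arrays, against 4 and 5 of 15 for basophils and mast cells and 4 and 6 of 15 for endothelium.

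With 2 arrays the likeness of 2 genes is only the closeness of their differences. For Cd200 the 3 nearest of the genes that passed the filter were Lrg1 (6.20 and 7.57), Gpnmb (9.88 and 11.25) and Rgs18 (4.58 and 5.94), whose wild type value lies below background, so that its difference is not exact. For Cd200r2 no nearest genes are named, because its wild type value lies below background and gives the difference only a lower bound. The gaps in log2 difference were at most 0.01, and 2 arrays give each gene 1 such number.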

How the data were processed

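cDNA was amplified from 10 ng of total RNA, and the biotin-labelled product was hybridised to Affymetrix arrays, 1 array per genotype, per the labels' protocols. The authors deposited log2 values, and the submitters' processing notes name RMA. This method subtracts background, gives the arrays a common distribution and combines the probes of a row into 1 value. The log base is read from the method and the range of values. The sources used here name no RMA version or genome build, and no scanner values were used.

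Of 41345 rows, 23521 have 1 gene symbol in the platform annotation, and rows of a gene were averaged (22180 genes). The filter, the background level and the local spread (20 bins of level) are as described in the report. Differences were computed with Python 3.11.15, numpy 2.4.6 and pandas 2.3.3. The calling step was also run on simulated data. Their noise was kept below the threshold and their changes lay well past it. That run therefore checks the code only and says nothing about error rates in these arrays. Promoter windows were aligned locally with Biopython 1.88 (match 1, mismatch -1, gap opening -3, extension -1). No test was possible with 1 array a group. The number of arrays limits the precision. The median of all rows was 5.17 and 5.10 and the local spread ranged from 0.20 to 0.33.

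The members, gene lists and thresholds were chosen with earlier results of these data known. The text names every member, the genes with defining roles and up to 4 others of each pathway list by largest difference, the 4 most different neighbours that passed, the 3 genes nearest in difference to a member 2-fold apart (not used for Cd200r2, whose difference is a bound), and Pikfyve, Siglecf and Itgax. Marker genes and the genes of the closing section were chosen after their values were seen. Alternatives were median centring, quantile normalisation, adding 16 to the linear values, the brightest row per gene, 3 other filters, 3 other thresholds and list means.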

Additional observations from a re-analysis of the deposited data

How the results depend on the processing

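Of 64 recomputed values, 61 stayed within the local spread or, for counts, within 1.5 times, and none reversed a called difference. Some could not have moved. Each member has 1 row, so taking the brightest row returned the same value, and a count of 0 cannot rise at a stricter threshold. List medians were held against the spread of single genes, which is wide for a median. A reversal was looked for only in Cd200 and Cd200r2. The tally is therefore no measure of robustness. The difference of Cd200 ranged from 1.21 to 1.43, that of Cd200r4 from 0.51 to 0.65, that of Cd200r1 from -0.22 to -0.10 and that of Cd200r3 from 0.20 to 0.41. With 16 added to the linear values, Cd200r2 differed by 1.95, since this addition shrinks differences of low values. The count of members at least 2-fold higher was 1 under a filter set to the 75th percentile of rows, which keeps 3 members and drops Cd200r2, and 1 at a threshold of 3-fold. It was 3 at 1.5-fold. Cd200r4 lies just past that threshold and fell below it after quantile normalisation (0.51) and with 16 added to the linear values (0.57). The median of the CD200R1 signalling list ranged from -0.13 to -0.03 and that of the list of other inhibitory receptors and Cd47 from -0.16 to -0.04. That of the DAP12 list ranged from -0.01 to 0.06, so it has no direction. No paired analysis was possible because each genotype has 1 array. Signal over background limits Cd200r3, on both arrays, and Cd200r2, on the wild type array.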

Other observations

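Cd200r2 belonged to a small group of genes that lay below background on the wild type array and clearly above it on the KO array. Because Cd200r2 was chosen on this contrast, its place in such a group is built in and nothing is read from it. Of 11030 genes below background on the wild type array, 709 reached it on the KO array. Of the 11030, 9 (0.0816%) were at least 2-fold above the wild type background level there. These 9 were Awat1 (at least 15.8-fold), the immunoglobulin segment Igkv8-30 (at least 9.55-fold), Cd200r2 (at least 4.08-fold), Gng8, Rab34, Vnn3, Cav1, Ccn3 and A730085K08Rik (at least 3.19-fold to 2.07-fold). In the opposite direction, 656 of 10977 genes below background on the KO array reached it on the wild type array, and 0 were 2-fold above the KO background level. Among the 12516 genes that passed the filter, 0.927% were at least 2-fold higher and 0.336% lower. These counts describe 1 array per genotype and no test was run.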
